A study of Mus musculus with 24 samples.

Results

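NK cells taken on day 4 of growth of the RMA lymphoma were compared with NK cells taken on day 2. The members were chosen by their titles and are the 3 RMA libraries named intermediate and the 3 named early, 6 of 24 libraries in 7 groups. The series measured RNA in NK cells sorted from the spleens of C57BL/6J mice that had received lymphoma cells intravenously, and in NK cells of mice without tumor. The comparison asks what changed in NK cells between the first days of tumor growth and the next, within a single tumor model.

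All mice were wild type C57BL/6J females of 7 to 9 weeks where not specified otherwise, and the labels give no age per library. The day 2 group (RMA early) and the day 4 group (RMA intermediate) carried RMA, a mouse T cell lymphoma line. Levels in 4 control libraries from mice without tumor are given beside them, and for some gene lists also those in 3 RMA libraries from day 9. RMA-KR, the other tumor, is an RMA clone that lacks B2m, and so surface MHC class I, and carries the NKG2D ligand Rae1-β. Tumor cells of both kinds carried the fluorescent reporter ZsGreen. It was sampled at day 2 (3 libraries), day 7 (5 libraries) and day 14 (3 libraries). The labels name no pooling, date or batch, and each library is a different sample, so the days compare different mice.

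NK cells are innate lymphocytes that kill target cells with perforin and granzymes and secrete interferon-gamma. Activating receptors such as NKG2D and NKp46 are balanced by inhibitory receptors, many of them Ly49 proteins, that bind MHC class I. Type I interferon and cytokines such as IL-15, IL-12 and IL-18 prime resting NK cells, and primed cells can enter the cell cycle, which first needs the enzymes that copy DNA and then those that build the spindle and divide the cell.

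Values are given in the order replicate 1, 2 and 3 of each group. The libraries held 7203171, 9551915 and 7309026 counts at day 2 and 11817151, 10955743 and 9212393 counts at day 4. Levels are normalized counts (CPM, after TMM scaling), which makes libraries of different size comparable. Intervals and floors given below cover counting error only.

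RMA early 1 and RMA early 2 stood apart among the 6 libraries. Of 8158 genes with a median of at least 10 CPM over the series, 86 and 165 had no count in them, against 1 in RMA early 3, 5, 0 and 0 at day 4, and 0 to 4 in the controls. Elsewhere in the series, 106 had none in replicate 3 of RMA-KR day 14, and 18, 22 and 10 in the RMA-KR day 2 libraries. Log2 CPM correlated across genes at 0.810 to 0.853 between the day 2 libraries and at 0.957 to 0.964 between the day 4 libraries (genes are not independent replicates). The share of counts on long noncoding RNA was 2.01, 1.95 and 1.88% at day 2 and 1.44, 1.39 and 1.14% at day 4. Protein-coding genes with transcripts over 3 kb took 11.8, 11.1 and 11.5% of counts at day 2 and 9.97, 10.4 and 10.1% at day 4, and those under 1 kb took 41.1, 42.4 and 41.9% and 46.1, 45.9 and 46.4%. In the controls long noncoding RNA took 1.431 to 2.164% of counts. Protein-coding genes over 3 kb took 11.04 to 12.02% there, and those under 1 kb took 41.73 to 43.71%. The day 2 libraries lay within these control ranges, except that RMA early 1 lay below for genes under 1 kb. All day 4 libraries lay below the controls over 3 kb and above them under 1 kb. For long noncoding RNA, RMA intermediate 2 and 3 lay below the controls and RMA intermediate 1 within. Thus the days also differed in RNA composition, with day 4 further from the controls, and the part of this in the results below was not tested.

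Markers of NK cells were high in every library, which checks the label. The 16 markers, among them Ncr1, Klrb1c, Klrk1, Eomes and Prf1, summed to 35891, 35896 and 33496 CPM at day 2 and 42479.7, 36517 and 41549 CPM at day 4 (controls 30442 to 44179.7 CPM), none was at 0, and Gzma was the most abundant. None of the 16 passed the test between the days (edgeR; lowest adjusted p = 0.0655 for Eomes, log2 fold change -0.71). The libraries did not overlap for 11 of the 16, beside 22.5% of all genes tested. Eomes, Gzmb and Prf1 stayed uncalled under all 17 alternatives, though their lowest adjusted p there was 0.00807, 5.9e-08 and 0.00524. The sort had removed cells bearing CD3, CD5 or a T cell receptor and kept NK1.1 or NKp46 positive cells.

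Summed markers of red blood cells and platelets lay higher at day 2, though no member passed in edgeR. The 13 genes found in the table summed to 8.67, 31.9 and 36.2 CPM at day 2 and 0.706, 2.65 and 2.06 CPM at day 4, against 2.84 to 4.25 CPM in the controls. All 3 day 2 libraries lay above all 3 day 4 libraries, and the most abundant gene at day 2 was the platelet gene Ppbp in RMA early 1 and 2 and Car1 in RMA early 3. Hba-a2 had no count in any of the 6 libraries, and 11, 7 and 3 of the 13 genes had none in the day 2 libraries and 10, 9 and 10 in the day 4 libraries. Of the 13, 6 were tested. Their part in the results below was not tested. Summed levels of the other markers lay in these ranges: T cell and RMA lymphoma markers 391 to 562 CPM at day 2 and 362 to 416 CPM at day 4, B cell markers 221 to 287 CPM and 316 to 343 CPM, and macrophage and monocyte markers 17.5 to 52.3 CPM and 18 to 26.4 CPM. Dendritic cell markers summed to 597 to 909 CPM and 894 to 1018 CPM, plasma cell markers to 169 to 196 CPM and 283 to 319 CPM, ILC1 and ILC2 markers to 178 to 311 CPM and 225 to 281 CPM, and neutrophil and granulocyte markers to 0.934 to 3.70 CPM and 0.294 to 1.15 CPM. The most abundant of them at day 4 by mean were Trbc1 (196 CPM), Ighm (317 CPM), Cd68 (16.9 CPM), Itgax (844 CPM), Xbp1 (292 CPM) and Gata3 (165 CPM), several of which NK cells also express. Bst2, listed with the dendritic cell markers, is also an interferon-stimulated gene and is described with those.

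Between day 2 and day 4, members of the DNA replication and mitosis lists rose, and so did some genes stimulated by type I interferon, some of serine and tRNA metabolism, and Ldha, the gene of lactate dehydrogenase. Genes that fell included the long RNA genes Neat1 and Malat1, 3 of 21 Ly49 and other Klr receptor genes and a cell cycle inhibitor gene. Of 17097 genes tested, 295 (1.73%) changed more than 2-fold at an adjusted p below 0.05, and only such genes are called risen or fallen here. Of these, 188 (1.1%) rose and 107 (0.626%) fell, with 7428 genes above 0 and 9228 below, while the median log2 fold change over all genes tested was -0.11 (-0.10 with genes at 0 in a whole group set to their bound). The 3 and 3 libraries did not overlap for 3851 genes (22.5%).

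The count depended on single libraries. It was 48 without RMA early 1, 243 without RMA early 2, 610 without RMA early 3, 151 without RMA intermediate 1, 129 without RMA intermediate 2 and 84 without RMA intermediate 3. With both RMA early 1 and RMA early 2 left out, which leaves a single day 2 library and assumes that it varies like the other groups, 0 genes passed in edgeR (lowest adjusted p = 0.264; 1729 genes at an unadjusted p under 0.05), and no other tool was run on that setting. Fitted to the 6 libraries alone, 90 genes passed, and 44 of the 62 called genes followed by name did not, among them Amigo1 and Prr11, which passed without each of the 6 libraries in the full model. With limma voom 10 of the 62 did not pass. No risen or fallen gene named here keeps its call with both RMA early 1 and 2 left out, and none of the 62 turned direction. The direction of the whole depended on the scaling, since 63.7% of called genes were higher with TMM, 47.7% with DESeq2 size factors, 48.1% with upper quartile scaling and 39.0% with library totals alone. The all-gene median moved from -0.11 with TMM to -0.20, -0.20 and -0.24 with these.

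**Figure D1:**
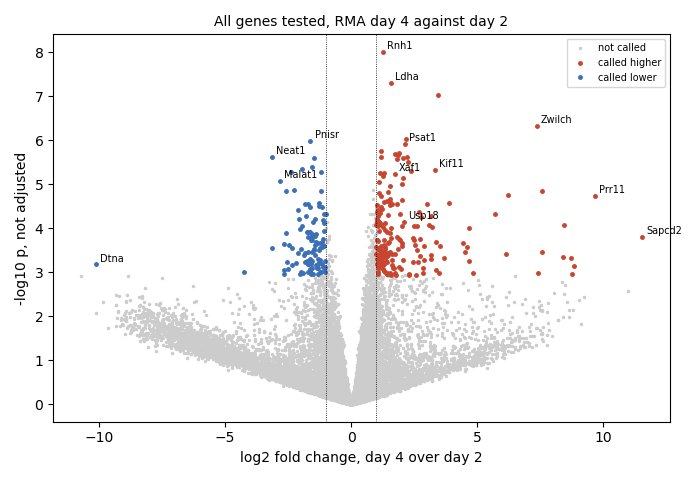
Each point is a gene, with its log2 fold change on the horizontal axis and the -log10 of its unadjusted p on the vertical axis (3 against 3 libraries), red for the 188 genes that rose and blue for the 107 that fell. Ldha, Zwilch and Kif11 lie among the highest on the right, and Neat1 and Malat1 on the left.

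Genes of DNA replication lay higher as a group. Of 36 genes tested, 36 had a log2 fold change above 0, 11 passed and none fell, with a median of 1.74 beside -0.11 over all genes tested. The 3 and 3 libraries did not overlap for 33 of them. Among the genes that rose are parts of the ring that unwinds DNA, a cyclin, a clamp loader subunit and both subunits of the enzyme that makes deoxynucleotides. The list summed to 1707, 3776 and 3169 CPM at day 2 and 6723, 10454 and 7911 CPM at day 4 (controls 1834 to 2113 CPM), so RMA early 1 lay below the lowest control and every day 4 library lay above all day 2 and control libraries. At day 9 the sum was 6785, 8399 and 4061 CPM. Since these are bulk samples, more cells in cycle and more RNA per cycling cell cannot be told apart, nor can fewer cells of a type from less RNA per cell in the groups below.

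Rrm2 (ENSMUSG00000020649, chr12:24708241-24714146) measured 12.8, 94.7 and 83.5 CPM at day 2 and 298, 444 and 327 CPM at day 4. Each day 4 library exceeded each day 2 library by a wide margin, and RMA early 1 was the lowest. It rose (log2 fold change 2.48, SE 0.56, adjusted p = 0.0204, 3 of 3 day 4 libraries above day 2). Mcm3 measured 13.2, 162 and 222 CPM at day 2 and 569, 1034 and 687 CPM at day 4, against 127 to 165 CPM in the controls, and rose (log2 fold change 2.53, SE 0.58, adjusted p = 0.0238). RMA early 1 was again the lowest, far below its own replicates, and the groups did not overlap. Ccne1, the cyclin that starts DNA synthesis, measured 12.1, 19.1 and 27.8 CPM at day 2 and 70.9, 141 and 113 CPM at day 4 and rose (log2 fold change 2.46, SE 0.55, adjusted p = 0.0197). Rrm2 did not pass without RMA early 1 (adjusted p = 0.0754), RMA intermediate 2 (adjusted p = 0.0716) or RMA intermediate 3 (adjusted p = 0.0626). Mcm3 did not pass without RMA intermediate 2 (adjusted p = 0.0865) or RMA intermediate 3 (adjusted p = 0.0723). Mcm3 had a log2 fold change of 3.11 without RMA early 3. Ccne1 did not pass without RMA early 1 (adjusted p = 0.109), RMA early 2 (adjusted p = 0.0564), RMA intermediate 2 (adjusted p = 0.0754) or RMA intermediate 3 (adjusted p = 0.0752).

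Rfc5 measured 47.4, 35.0 and 54.3 CPM at day 2 and 139, 185 and 154 CPM at day 4. Its day 2 values lay near the controls (45.3 to 51.2 CPM) and its day 4 values well above, and it rose (log2 fold change 1.81, SE 0.35, adjusted p = 0.00881). Rfc5 did not pass without RMA early 1 (adjusted p = 0.0559). Mcm6, of the same ring, had 437, 498 and 506 CPM at day 2 and 757, 1249 and 1002 CPM at day 4, a difference that did not pass (log2 fold change 1.06, SE 0.30, adjusted p = 0.0659). Mcm6 was uncalled under 14 of 17 alternatives and passed as higher under the rest (lowest adjusted p = 8.2e-05). Mcm5 had 88.7, 329 and 279 CPM at day 2 and 688, 1093 and 835 CPM at day 4 and rose (log2 fold change 1.91, SE 0.49, adjusted p = 0.0408). Mcm5 did not pass without RMA early 1 (adjusted p = 0.181), RMA intermediate 1 (adjusted p = 0.0701), RMA intermediate 2 (adjusted p = 0.131) or RMA intermediate 3 (adjusted p = 0.113), or with DESeq2 size factors (adjusted p = 0.0501) or library totals (adjusted p = 0.0603).

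Rrm1, the large subunit of that enzyme, measured 98.3, 290.0 and 184 CPM at day 2 and 403, 664 and 578 CPM at day 4. The groups did not overlap, and it rose (log2 fold change 1.52, SE 0.36, adjusted p = 0.0274). Rrm1 did not pass without RMA early 1 (adjusted p = 0.150), RMA early 3 (adjusted p = 0.0503), RMA intermediate 2 (adjusted p = 0.104) or RMA intermediate 3 (adjusted p = 0.103). Gins1, which joins the unwinding ring, measured 0.801, 0 and 1.59 CPM at day 2 and 23.4, 21.0 and 14.1 CPM at day 4 and rose (log2 fold change 4.61, SE 1.07, adjusted p = 0.0242). Gins1 did not pass without RMA early 1 (adjusted p = 0.10), RMA intermediate 1 (adjusted p = 0.0659), RMA intermediate 2 (adjusted p = 0.0657) or RMA intermediate 3 (adjusted p = 0.0662). Gins1 had a log2 fold change of 4.02 without RMA early 2 and 5.61 without RMA early 3.

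The promoter of Mcm5 is shown with letters of E2F, a transcription factor family of replication genes. The 250 bases before the gene start come from RefSeq (GRCm38.p6; chr8:75109259-75109508, plus strand), and capitals mark matches to TTTNNCGC on either strand. These letters stood in 8 of 30 promoters of the S phase list (26.7%) and in 4.28% of all 32851 promoters of that length (6.89% of those of genes tested). They also stood in 16.7% of promoters of both the MHC class I and ribosomal protein lists, 14.3% of both the MYC and NF-kB lists, 11.2% of genes that rose and 6.25% of genes that fell. The promoter and these looser letters were chosen after the matches were seen. The 2 matches of Mcm5 overlap each other. A match describes the letters only.
Mcm5: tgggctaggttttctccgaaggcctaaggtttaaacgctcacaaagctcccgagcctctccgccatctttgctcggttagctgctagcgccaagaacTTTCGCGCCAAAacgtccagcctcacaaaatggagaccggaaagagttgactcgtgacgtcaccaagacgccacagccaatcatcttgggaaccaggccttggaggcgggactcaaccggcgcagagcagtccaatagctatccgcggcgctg

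Genes of G2 and mitosis showed the largest median of the 24 lists, 2.53 beside -0.11 over all genes. All 42 tested had a log2 fold change above 0, 10 rose, none fell, and the libraries did not overlap for 40. They code for motor proteins, kinases and chromosome proteins of the dividing cell. Summed, the list measured 381, 1434 and 1552 CPM at day 2 and 5102, 6737 and 6248 CPM at day 4 (controls 368 to 1155 CPM). Every day 4 library lay above every day 2 and control library, and RMA early 1 was the lowest of the day 2 libraries. At day 9 the sum was 5873, 7384 and 4435 CPM. The median was 2.07 with both RMA early 1 and 2 left out.

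Kif11, the motor that pushes the spindle poles apart (ENSMUSG00000012443, chr19:37376403-37421859), measured 23.2, 12.9 and 41.8 CPM at day 2 and 208, 285 and 289 CPM at day 4. The day 2 values lay within or just above the controls (5.62 to 35.7 CPM) and the day 4 values were several times higher in all 3 libraries. It rose (log2 fold change 3.33, SE 0.56, adjusted p = 0.00371), a change that passed without each of the 6 libraries. Plk1, the kinase that drives mitosis, measured 11.9, 23.4 and 12.2 CPM at day 2 and 122, 156 and 149 CPM at day 4. All day 4 libraries exceeded all day 2 libraries, which stood near the controls (1.83 to 13.7 CPM). It rose (log2 fold change 3.17, SE 0.64, adjusted p = 0.0108), but it did not pass without RMA early 1 (adjusted p = 0.0747).

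Top2a, which untangles DNA, measured 29.6, 196 and 98.2 CPM at day 2 and 572, 817 and 718 CPM at day 4 and rose (log2 fold change 2.70, SE 0.54, adjusted p = 0.0105). The libraries did not overlap and RMA early 1 was the lowest. Kif20a, a motor of the dividing cell's midzone, measured 1.47, 2.78 and 16.5 CPM at day 2 and 71.2, 136 and 97.1 CPM at day 4 and rose (log2 fold change 3.88, SE 0.74, adjusted p = 0.00881). Day 4 lay far above both day 2 and the controls (3.84 to 10.5 CPM). Top2a did not pass without RMA early 1 (adjusted p = 0.0649). Its log2 fold change was 3.46 without RMA early 2. Kif20a did not pass without RMA early 1 (adjusted p = 0.0619). Kif20a had a log2 fold change of 5.55 without RMA early 3. Mki67, the gene of the proliferation marker Ki-67, had 0.133, 87.5 and 86.9 CPM at day 2 and 267, 358 and 266 CPM at day 4. RMA early 1 was close to 0 while its replicates were not, and the difference did not pass (log2 fold change 2.35, SE 0.91, adjusted p = 0.177). Mki67 was uncalled under 15 of 16 alternatives and passed as higher under the rest (lowest adjusted p = 8.0e-11).

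Cdc20, which releases cells from mitosis, measured 3.2, 8.76 and 35.7 CPM at day 2 and 112, 161 and 172 CPM at day 4 and rose (log2 fold change 3.23, SE 0.68, adjusted p = 0.0145). Every day 4 library exceeded every day 2 library. Tacc3, of the spindle, measured 11.2, 45.7 and 58.0 CPM at day 2 and 193, 245 and 203 CPM at day 4 and rose (log2 fold change 2.48, SE 0.52, adjusted p = 0.0144). Cdc20 did not pass without RMA early 1 (adjusted p = 0.0754), RMA early 2 (adjusted p = 0.0574) or RMA intermediate 3 (adjusted p = 0.0582). Its log2 fold change was 4.61 without RMA early 3. Tacc3 did not pass without RMA early 1 (adjusted p = 0.0754). Racgap1, which builds the cleavage furrow, measured 116, 111 and 212 CPM at day 2 and 329, 412 and 432 CPM at day 4 and rose (log2 fold change 1.42, SE 0.34, adjusted p = 0.0285). Racgap1 did not pass without RMA early 1 (adjusted p = 0.149), RMA early 2 (adjusted p = 0.0993), RMA intermediate 2 (adjusted p = 0.0850) or RMA intermediate 3 (adjusted p = 0.117). Cdkn3, a phosphatase of the cell cycle, measured 0, 0 and 0.529 CPM at day 2 and 11.2, 13.0 and 16.3 CPM at day 4 and rose (log2 fold change 6.22, SE 1.15, adjusted p = 0.00725). All its 4 day 2 counts were in RMA early 3, so the size of its change is not stable. Cdkn3 did not pass without RMA early 1 (adjusted p = 0.0506). Cdkn3 had a log2 fold change of 5.61 without RMA early 2 and 10.14 without RMA early 3.

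Promoters of Kif11 and Top2a are shown, also chosen after matches were seen, from RefSeq (GRCm38.p6; Kif11 chr19:37376132-37376381, plus strand; Top2a chr11:99024190-99024439, minus strand), with CCAAT, the letters NF-Y binds, in capitals on either strand (ATTGG on the other). CCAAT stood in 27 of 35 promoters of the mitosis list (77.1%) and in 33.8% of all promoters. It also stood in 85.0% of promoters of the cholesterol list, 72.2% of the MHC class I list and 60.0% of both the S phase and ATF4 lists. Over all genes it stood in 42.8% of those that rose, 40% of those that fell and 36.3% of those tested.
Kif11: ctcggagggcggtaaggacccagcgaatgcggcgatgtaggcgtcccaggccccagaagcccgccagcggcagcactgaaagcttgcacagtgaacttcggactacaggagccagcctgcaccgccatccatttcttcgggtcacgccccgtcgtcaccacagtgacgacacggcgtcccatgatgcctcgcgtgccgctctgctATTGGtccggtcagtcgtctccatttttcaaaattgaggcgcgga
Top2a: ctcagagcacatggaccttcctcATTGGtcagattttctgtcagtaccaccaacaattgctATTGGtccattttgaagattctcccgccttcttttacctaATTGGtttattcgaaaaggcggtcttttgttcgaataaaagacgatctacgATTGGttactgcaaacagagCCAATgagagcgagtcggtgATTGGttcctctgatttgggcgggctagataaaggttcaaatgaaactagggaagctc

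**Figure D2:**
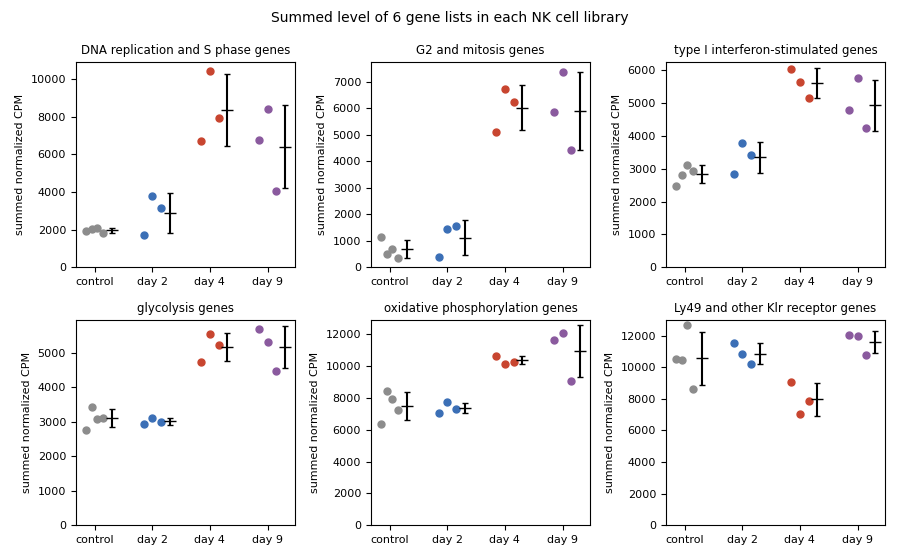
Summed normalized CPM of 6 gene lists in each library of the control, day 2, day 4 and day 9 groups, one point per library, with the mean and SD beside the points. For the S phase, mitosis and type I interferon lists every day 4 library lies above every day 2 library, and for the Ly49 list every day 4 library lies below.

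Genes that were absent or nearly so at day 2 led the list of largest changes. Sapcd2, a gene of spindle orientation in dividing cells, had 0, 0 and 0 CPM at day 2 and 20.2, 45.7 and 40.9 CPM at day 4, at least 96.6-fold higher against a floor of 3 counts per library. Prr11 had 0, 0 and 0 and 9.97, 10.4 and 9.17 CPM and was at least 26.7-fold higher. Zwilch, of the checkpoint that holds chromosomes until they are attached, measured 0, 0 and 0.529 CPM at day 2 and 42.6, 20.3 and 25.8 CPM at day 4 and rose (log2 fold change 7.36, SE 1.06, adjusted p = 0.00202), a change that passed without each of the 6 libraries. Its size is not stable, as its 4 counts at day 2 were all in RMA early 3. Its log2 fold change was 6.74 without RMA early 2 and 11.27 without RMA early 3. These genes stood near 0 in day 2 libraries and at 0 to 8.69 (Sapcd2), 0 to 0.527 (Prr11) and 0.579 to 3.79 CPM (Zwilch) in the controls. Sapcd2 did not pass without RMA early 1 (adjusted p = 0.0834), RMA early 2 (adjusted p = 0.0544) or RMA intermediate 3 (adjusted p = 0.0559). Of the 188 risen genes, 21 had a day 2 library at 0, 7 had all 3 at 0, and 8 of the 21 had a control mean of at least 5 CPM. Amigo1, one of those 8, had 0.400, 0.103 and 0 CPM at day 2, 6.70, 9.81 and 11.2 CPM at day 4 and 7.06 to 24.8 CPM in the controls. RMA intermediate 1 thus lay just below the controls, and the other day 4 libraries lay at their low end. Zkscan5, another, had 0, 0 and 0.132 CPM at day 2, 5.91, 19.5 and 5.27 CPM at day 4 and 12.1 to 18.1 CPM in the controls, so only RMA intermediate 2 came above them. The 3 day 2 libraries held a single count of it, and the ratio of day 4 to day 2 counts was 255 (95% counting interval 45.5 to 10116). This ratio rests largely on RMA intermediate 2 and is lower without that library. Zkscan5 did not pass without RMA early 1 (adjusted p = 0.0591).

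Parpbp, which restrains recombination repair, had 0, 0 and 0.132 CPM at day 2 and 16.9, 29.7 and 26.6 CPM at day 4, a ratio of counts of 595 (95% counting interval 106 to 23529.7). All 3 day 4 libraries held it, and of the day 2 libraries only RMA early 3 did. Parpbp did not pass without RMA early 1 (adjusted p = 0.162), RMA early 2 (adjusted p = 0.113), RMA early 3 (adjusted p = 0.0616), RMA intermediate 1 (adjusted p = 0.0730), RMA intermediate 2 (adjusted p = 0.0855) or RMA intermediate 3 (adjusted p = 0.104). Cables1, which binds cell cycle kinases, had 0, 0 and 0 CPM at day 2 and 3.88, 5.79 and 5.62 CPM at day 4, at least 13.8-fold higher. Cables1 did not pass without RMA early 1 (adjusted p = 0.126), RMA early 2 (adjusted p = 0.0863), RMA early 3 (adjusted p = 0.0557), RMA intermediate 1 (adjusted p = 0.0581), RMA intermediate 2 (adjusted p = 0.0700) or RMA intermediate 3 (adjusted p = 0.0857). Noct, a phosphatase with a daily rhythm, had 0.133, 0 and 0 CPM at day 2 and 12.4, 9.32 and 8.48 CPM at day 4, a ratio of counts of 254 (95% counting interval 45.2 to 10052). Noct did not pass without RMA early 1 (adjusted p = 0.0886), RMA early 2 (adjusted p = 0.0880), RMA early 3 (adjusted p = 0.0595), RMA intermediate 1 (adjusted p = 0.0610), RMA intermediate 2 (adjusted p = 0.0621) or RMA intermediate 3 (adjusted p = 0.0752). Ckap2, of the mitotic spindle, measured 0, 0 and 5.55 CPM at day 2 and 54.6, 44.7 and 59.5 CPM at day 4 and rose (log2 fold change 4.85, SE 1.30, adjusted p = 0.0477). All its day 2 counts were in RMA early 3, so the size of its change is not stable. Ckap2 did not pass without RMA early 1 (adjusted p = 0.163), RMA early 2 (adjusted p = 0.108), RMA intermediate 1 (adjusted p = 0.102), RMA intermediate 2 (adjusted p = 0.0913) or RMA intermediate 3 (adjusted p = 0.126), or with DESeq2 size factors (adjusted p = 0.0512), upper quartile scaling (adjusted p = 0.0515) or library totals (adjusted p = 0.0563). Ckap2 had a log2 fold change of 4.25 without RMA early 2 and 12.11 without RMA early 3.

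Genes that type I interferon induces were next. Of 46 tested, 41 had a log2 fold change above 0 and 7 rose. None fell, the median was 1.05 beside -0.11, and the libraries did not overlap for 32. Summed, the interferon list measured 2832, 3777 and 3409 CPM at day 2 and 6044, 5619 and 5146 CPM at day 4 (controls 2458 to 3118 CPM). Day 4 lay above day 2 and the controls in all 3 libraries. At day 9 the sum was 4778, 5768 and 4243 CPM.

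Xaf1, an interferon-induced gene of cell death control, measured 20.8, 28.1 and 40.1 CPM at day 2 and 98.7, 95.8 and 98.7 CPM at day 4. The 3 day 4 values were nearly alike and all exceeded the controls (28.4 to 44.9 CPM), and the gene rose (log2 fold change 1.72, SE 0.29, adjusted p = 0.00371) also without each of the 6 libraries. Usp18, which removes ISG15 from proteins and restrains interferon signaling, measured 68.7, 37.6 and 60.7 CPM at day 2 and 254, 236 and 223 CPM at day 4 and rose (log2 fold change 2.10, SE 0.43, adjusted p = 0.0132). Its day 4 libraries all stood far above day 2 and the controls (16.6 to 55.9 CPM). Ifi44 measured 0, 6.39 and 2.25 CPM at day 2 and 75.6, 88.1 and 58.9 CPM at day 4 and rose (log2 fold change 4.66, SE 0.99, adjusted p = 0.0152). RMA early 1 held no count of it, and day 4 lay above the controls (4.44 to 19.3 CPM). Usp18 did not pass without RMA early 1 (adjusted p = 0.0591) or RMA early 2 (adjusted p = 0.0520). Ifi44 did not pass without RMA early 1 (adjusted p = 0.0649). Ifi44 had a log2 fold change of 6.03 without RMA early 2.

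Oas1a, an enzyme that senses double-stranded RNA, measured 7.34, 41.9 and 32.8 CPM at day 2 and 134, 93.3 and 107 CPM at day 4. All 3 day 4 libraries exceeded all 3 day 2 libraries, and it rose (log2 fold change 2.02, SE 0.46, adjusted p = 0.0218). Bst2, which tethers viruses to the cell surface, measured 22.4, 44.6 and 34.4 CPM at day 2 and 106, 95.4 and 96 CPM at day 4 and rose (log2 fold change 1.55, SE 0.42, adjusted p = 0.0480). Oas1a did not pass without RMA early 1 (adjusted p = 0.0797), RMA intermediate 1 (adjusted p = 0.0803) or RMA intermediate 3 (adjusted p = 0.0752). Bst2 did not pass without RMA early 1 (adjusted p = 0.200), RMA early 2 (adjusted p = 0.0558), RMA early 3 (adjusted p = 0.0732), RMA intermediate 1 (adjusted p = 0.127), RMA intermediate 2 (adjusted p = 0.107) or RMA intermediate 3 (adjusted p = 0.130), or with DESeq2 size factors (adjusted p = 0.0606), upper quartile scaling (adjusted p = 0.0605) or library totals (adjusted p = 0.0737). Isg15 (4.8, 6.70 and 4.36 CPM at day 2 and 23.7, 22.1 and 19.7 CPM at day 4) and Rsad2 (0.400, 0 and 6.87 CPM at day 2 and 32.6, 36.7 and 32.2 CPM at day 4) were higher in all 3 day 4 libraries than in any day 2 library, and neither passed (log2 fold change 2.04, SE 0.76, adjusted p = 0.163 for Isg15; log2 fold change 3.80, SE 1.22, adjusted p = 0.101 for Rsad2). Isg15 was uncalled under 16 of 17 alternatives and passed as higher under the rest (lowest adjusted p = 0.0388). Rsad2 was uncalled under 11 of 16 alternatives and passed as higher under the rest (lowest adjusted p = 0.00412). Rsad2 had a log2 fold change of 3.21 without RMA early 2 and 7.40 without RMA early 3. Trim30a (262, 302 and 261 CPM at day 2 and 580.5, 555 and 484 CPM at day 4) passed the adjusted p but not the fold minimum (log2 fold change 0.97, SE 0.19, adjusted p = 0.00974). Trim30a was uncalled under 14 of 17 alternatives and passed as higher under the rest (lowest adjusted p = 0.000769).

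Ifi27l2a, an interferon-induced gene, measured 0, 5.88 and 5.29 CPM at day 2 and 153, 39.8 and 63.2 CPM at day 4 and rose (log2 fold change 4.51, SE 1.08, adjusted p = 0.0278). The groups did not overlap. Zbp1, a sensor of Z-form nucleic acid, measured 48.7, 92.6 and 110.0 CPM at day 2 and 189, 190.5 and 193 CPM at day 4 and rose (log2 fold change 1.19, SE 0.30, adjusted p = 0.0360). Ifi27l2a did not pass without RMA early 1 (adjusted p = 0.0886), RMA early 2 (adjusted p = 0.0516), RMA intermediate 1 (adjusted p = 0.112) or RMA intermediate 3 (adjusted p = 0.0752). Its log2 fold change was 3.78 without RMA intermediate 1. Zbp1 did not pass without RMA early 1 (adjusted p = 0.181), RMA early 2 (adjusted p = 0.0658), RMA intermediate 1 (adjusted p = 0.0934), RMA intermediate 2 (adjusted p = 0.0923) or RMA intermediate 3 (adjusted p = 0.119), or with library totals (adjusted p = 0.0650).

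Promoters of Trim30a, Oas1a and Bst2 are shown, chosen because they hold GAAANNGAA, the core of the interferon-stimulated response element, marked in capitals on either strand (RefSeq, GRCm38.p6; Trim30a chr7:104465194-104465443, minus strand; Oas1a chr5:120907526-120907775, minus strand; Bst2 chr8:71537473-71537722, minus strand). These letters stood in 16 of 33 promoters of the type I list (48.5%), in 13 of 15 of the interferon-gamma list (86.7%) and in 7.13% of all promoters (6.41% of those of genes tested). They also stood in 30.8% of promoters of the cytokine list, 25% of the checkpoint list, 19.4% of the ribosomal protein list, 5.92% of genes that rose and 2.5% of genes that fell. The 2 matches of Oas1a overlap each other, as do those of Bst2. In all, 6 motifs were searched, and the ones shown, with the genes shown, were chosen after the matches were seen, as were looser letters for E2F.
Trim30a: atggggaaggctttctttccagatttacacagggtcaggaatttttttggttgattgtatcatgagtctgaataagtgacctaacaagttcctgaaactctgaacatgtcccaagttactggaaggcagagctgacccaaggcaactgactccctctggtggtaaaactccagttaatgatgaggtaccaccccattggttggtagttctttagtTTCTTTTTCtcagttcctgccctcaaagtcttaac
Oas1a: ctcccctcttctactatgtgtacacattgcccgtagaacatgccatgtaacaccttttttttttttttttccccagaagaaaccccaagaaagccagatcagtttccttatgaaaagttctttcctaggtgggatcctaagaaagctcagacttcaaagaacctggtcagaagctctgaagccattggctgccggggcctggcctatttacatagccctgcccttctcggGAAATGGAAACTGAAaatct
Bst2: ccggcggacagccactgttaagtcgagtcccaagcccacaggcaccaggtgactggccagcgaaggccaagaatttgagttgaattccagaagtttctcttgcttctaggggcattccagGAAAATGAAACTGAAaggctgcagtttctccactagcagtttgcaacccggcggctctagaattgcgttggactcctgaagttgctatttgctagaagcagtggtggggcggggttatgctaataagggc

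Genes of interferon-gamma response and of MHC class I had smaller medians. Among all genes tested 7428 of 17097 were above 0. In the first list, 16 of 21 were above 0 and none passed (edgeR), with a median of 0.62, and 0.40 without RMA early 1. In the second, 19 of 21 were above 0, none passed the fold minimum and 5 passed the adjusted p (Psmb8, Psme1, Pdia3, Tapbp and Psme2), with a median of 0.52, and 0.36 without RMA early 1. Psmb8, an immunoproteasome subunit, measured 269.9, 437 and 335 CPM at day 2 and 646, 542 and 609.9 CPM at day 4 (log2 fold change 0.79, SE 0.18, adjusted p = 0.0204). Its groups did not overlap, but the difference stayed under the fold minimum. H2-K1 and H2-D1 are close relatives whose reads can be shared, so their values are uncertain. H2-D1 measured 6297, 6730.1 and 7185 CPM at day 2 and 8758, 8312 and 9151 CPM at day 4 (log2 fold change 0.38, SE 0.16, adjusted p = 0.209).

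Among the glycolysis genes tested, only Ldha rose. Ldha, which makes lactate from pyruvate (ENSMUSG00000063229, chr7:46841475-46855627), measured 361, 499 and 465 CPM at day 2 and 1234, 1450.1 and 1301 CPM at day 4. All 3 day 4 values were far above the day 2 values and the controls (457 to 544 CPM), and it rose (log2 fold change 1.59, SE 0.20, adjusted p = 0.000428) without each of the 6 libraries too. Of 22 glycolysis genes, 1 rose and none fell, 5 passed the adjusted p (the others being Pkm, Eno1, Gpi1 and Aldoa) and 18 were above 0, with a median of 0.68. The glycolysis list summed to 2927, 3119 and 2983 CPM at day 2 and 4732, 5546 and 5224 CPM at day 4 (controls 2774 to 3414 CPM).

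The risen genes of the ATF4 and amino acid list were those of serine synthesis and tRNA charging. Psat1, an enzyme of serine synthesis, measured 30.6, 42.3 and 71.6 CPM at day 2 and 177, 253 and 209 CPM at day 4. Its day 4 values all lay above the controls (41.7 to 63.1 CPM), and it rose (log2 fold change 2.15, SE 0.33, adjusted p = 0.00268) without each of the 6 libraries too. Phgdh, which starts the same path, measured 22.7, 11.8 and 19.3 CPM at day 2 and 48.6, 89.2 and 66.8 CPM at day 4 and rose (log2 fold change 1.93, SE 0.39, adjusted p = 0.0106). Aars, which charges the alanine tRNA, measured 65.1, 87.2 and 98.2 CPM at day 2 and 174, 219 and 180.0 CPM at day 4 and rose (log2 fold change 1.19, SE 0.23, adjusted p = 0.00921). The groups of these genes did not overlap. Gars, for glycine, measured 159, 152 and 178 CPM at day 2 and 319.7, 363 and 341 CPM at day 4 and rose (log2 fold change 1.06, SE 0.21, adjusted p = 0.0108). Phgdh did not pass without RMA intermediate 2 (adjusted p = 0.0579). Aars did not pass without RMA early 1 (adjusted p = 0.0733). Gars did not pass without RMA early 1 (adjusted p = 0.0667), or with DESeq2 size factors (log2 fold change 0.97), upper quartile scaling (log2 fold change 0.97) or library totals (log2 fold change 0.94). Of 25 genes of the ATF4 and amino acid list, 4 rose and none fell, with a median of 0.50 and 19 above 0. Atf4 itself measured 245, 381 and 295 CPM at day 2 and 320.1, 209.6 and 257 CPM at day 4 (log2 fold change -0.23, SE 0.25, adjusted p = 0.640).

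The promoter of Aars is shown with TGATGNAA, the letters that ATF4 is known to bind, in capitals on either strand (RefSeq, GRCm38.p6; chr8:111033592-111033841, plus strand). The letters stood in 4 of 20 promoters of the list (20%) and in 3.45% of all promoters (2.22% of those of genes tested), and in 3.29% of genes that rose and 1.25% of genes that fell. The Ly49 list had 11.8%.
Aars: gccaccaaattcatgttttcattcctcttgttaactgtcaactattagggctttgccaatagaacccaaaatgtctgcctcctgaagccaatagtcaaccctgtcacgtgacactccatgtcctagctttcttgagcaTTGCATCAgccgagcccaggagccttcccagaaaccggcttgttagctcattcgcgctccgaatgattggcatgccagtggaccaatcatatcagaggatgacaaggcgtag

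In oxidative phosphorylation 55 of 58 genes were above 0, 2 rose and none fell (median 0.59; sum 7063, 7719.7 and 7298 CPM at day 2 and 10657, 10157 and 10284 CPM at day 4, controls 6371 to 8435 CPM). Each day 4 library lay above each day 2 and control library. Ndufc2, of respiratory complex I, measured 13.5, 16.0 and 24.7 CPM at day 2 and 57.7, 40.2 and 46.2 CPM at day 4 and rose (log2 fold change 1.41, SE 0.34, adjusted p = 0.0293). Ndufc2 did not pass without RMA early 1 (adjusted p = 0.149), RMA early 2 (adjusted p = 0.0849), RMA intermediate 1 (adjusted p = 0.120), RMA intermediate 2 (adjusted p = 0.0620) or RMA intermediate 3 (adjusted p = 0.0985). Atp5o, of ATP synthase, measured 40.4, 38.5 and 34.1 CPM at day 2 and 71.5, 77.0 and 82.6 CPM at day 4 and rose (log2 fold change 1.03, SE 0.23, adjusted p = 0.0204). Atp5o did not pass without RMA early 1 (adjusted p = 0.0733), RMA early 3 (log2 fold change 0.96, adjusted p = 0.0422), RMA intermediate 2 (adjusted p = 0.0668) or RMA intermediate 3 (adjusted p = 0.102), or with DESeq2 size factors (log2 fold change 0.94), upper quartile scaling (log2 fold change 0.94) or library totals (log2 fold change 0.90).

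Of 29 cholesterol and fatty acid genes, 3 rose and none fell (median 0.70). Stard4, a carrier of cholesterol, measured 10.5, 24 and 6.35 CPM at day 2 and 46.7, 70.4 and 49.4 CPM at day 4, against 29.0 to 42.7 CPM in the controls, and rose (log2 fold change 2.02, SE 0.43, adjusted p = 0.0144). Its day 2 values lay under the controls. Stard4 did not pass without RMA early 1 (adjusted p = 0.0852) or RMA intermediate 2 (adjusted p = 0.0657). Stard4 had a log2 fold change of 2.71 without RMA early 2. Sc5d and Dhcr7, enzymes of late sterol synthesis, were the others. Sc5d measured 31.8, 40.7 and 28.3 CPM at day 2 and 90.2, 93.7 and 81.1 CPM at day 4 and rose (log2 fold change 1.39, SE 0.34, adjusted p = 0.0304). Dhcr7 measured 21.7, 34.7 and 24.6 CPM at day 2 and 61.0, 64.7 and 72.0 CPM at day 4 and rose (log2 fold change 1.28, SE 0.31, adjusted p = 0.0304). Sc5d did not pass without RMA early 1 (adjusted p = 0.127), RMA early 3 (adjusted p = 0.0675), RMA intermediate 1 (adjusted p = 0.0894), RMA intermediate 2 (adjusted p = 0.0923) or RMA intermediate 3 (adjusted p = 0.0879), or with library totals (adjusted p = 0.0524). Dhcr7 did not pass without RMA early 1 (adjusted p = 0.151), RMA early 3 (adjusted p = 0.0612), RMA intermediate 1 (adjusted p = 0.0702), RMA intermediate 2 (adjusted p = 0.0803) or RMA intermediate 3 (adjusted p = 0.124), or with library totals (adjusted p = 0.0517).

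In the MYC and ribosome biogenesis list 1 of 35 rose and 27 were above 0 (median 0.60). The MYC list summed to 1769.6, 2406 and 2159 CPM at day 2 and 2899, 3686 and 3079 CPM at day 4, without overlap (controls 1824 to 2348 CPM). In the ribosomal protein list 0 of 50 passed (edgeR; median 0.26, 0.11 without RMA intermediate 1 and 0.40 without RMA intermediate 2), and the sum was 5328, 6011 and 6272 CPM at day 2 and 9096, 6794 and 7262 CPM at day 4, without overlap (controls 6692 to 7421 CPM). Of the 50, 1 passed the adjusted p alone. The MYC member that rose was Nhp2, of the particle that modifies ribosomal RNA (25.6, 37.8 and 29.9 CPM at day 2 and 76.2, 89.9 and 73.4 CPM at day 4; log2 fold change 1.36, SE 0.32, adjusted p = 0.0241). Nhp2 did not pass without RMA early 1 (adjusted p = 0.123), RMA intermediate 1 (adjusted p = 0.0581), RMA intermediate 2 (adjusted p = 0.0894) or RMA intermediate 3 (adjusted p = 0.0752).

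Of 20 cytotoxic granule genes, 17 were above 0 and none passed (edgeR; median 0.48), while 1 passed the adjusted p alone. The libraries did not overlap for 14, beside 22.5% of all genes tested. Gzmb, a granzyme, measured 1904, 2386 and 2216 CPM at day 2 and 4489.6, 3973 and 4245 CPM at day 4. All 3 day 4 libraries lay above day 2 and the difference did not pass (log2 fold change 0.97, SE 0.32, adjusted p = 0.117). Prf1, perforin, measured 4524, 4528 and 4056 CPM at day 2 and 5612, 6113 and 6809 CPM at day 4 (log2 fold change 0.50, SE 0.24, adjusted p = 0.255). Ncr1, which codes for NKp46, measured 3440.2, 3414 and 2799 CPM at day 2 and 2785, 2698 and 2843 CPM at day 4 with overlapping groups (log2 fold change -0.21, SE 0.18, adjusted p = 0.524).

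Spp1, osteopontin, was the gene of the 17 cytokine and chemokine genes that rose (list median 0.30, 0.18 without RMA early 1 and 0.45 without RMA early 2): it measured 1.60, 44.5 and 18.1 CPM at day 2 and 131, 208 and 218 CPM at day 4 (log2 fold change 3.11, SE 0.65, adjusted p = 0.0142). The groups did not overlap, and day 4 lay above the controls (5.89 to 24.1 CPM). Spp1 did not pass without RMA intermediate 3 (adjusted p = 0.0576). Spp1 had a log2 fold change of 4.23 without RMA early 2. Ifng measured 256, 332 and 339 CPM at day 2 and 393, 337 and 374 CPM at day 4 (log2 fold change 0.25, SE 0.56, adjusted p = 0.851), Ccl5 3484, 3546 and 3457 CPM at day 2 and 3789, 2314 and 3389 CPM at day 4 (log2 fold change -0.14, SE 0.24, adjusted p = 0.783) and Ccl3 1002, 1681 and 1295 CPM at day 2 and 1786, 1438 and 1669.5 CPM at day 4 (log2 fold change 0.30, SE 0.68, adjusted p = 0.855). All of these overlapped between the days. Tnfrsf9, the costimulatory receptor 4-1BB, measured 114, 385 and 340.0 CPM at day 2 and 681, 879.6 and 877 CPM at day 4 and rose (log2 fold change 1.54, SE 0.34, adjusted p = 0.0172). Tnfrsf9 did not pass without RMA early 1 (adjusted p = 0.0754), RMA intermediate 2 (adjusted p = 0.0631) or RMA intermediate 3 (adjusted p = 0.0752). It is the member that rose of the IL-2 and IL-15 list (1 of 25, median 0.20, 0.18 without RMA intermediate 2 and 0.37 without RMA intermediate 1), the IL-12 and IL-18 list (1 of 20, median 0.29, 0.13 without RMA early 1 and 0.45 without RMA early 2) and the NF-kB and TNF receptor list (1 of 25, median 0.10, which was -0.03 with library totals, and -0.20 without RMA early 1 and 0.09 without RMA intermediate 1).

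Tigit, an inhibitory receptor of NK and T cells, was the 1 of 17 checkpoint genes tested that rose. It measured 44.3, 128 and 128 CPM at day 2 and 252, 329 and 334 CPM at day 4. Every day 4 library exceeded every day 2 library and the control range (61.2 to 128 CPM), with log2 fold change 1.60, SE 0.40, adjusted p = 0.0341. Tigit did not pass without RMA early 1 (adjusted p = 0.163), RMA intermediate 1 (adjusted p = 0.0581), RMA intermediate 2 (adjusted p = 0.0950) or RMA intermediate 3 (adjusted p = 0.124), or with library totals (adjusted p = 0.0503). Lag3 had 0, 34.0 and 12.4 CPM at day 2 and 81.8, 78.3 and 87.1 CPM at day 4 (log2 fold change 2.40, SE 0.95, adjusted p = 0.184), with RMA early 1 at 0 and the groups apart. Lag3 was uncalled under 15 of 16 alternatives and passed as higher under the rest (lowest adjusted p = 1.3e-05). Lag3 had a log2 fold change of 3.73 without RMA early 2. Havcr2, which codes for Tim-3, had 0, 23.7 and 0 CPM at day 2 and 4.85, 16.6 and 2.64 CPM at day 4 (log2 fold change 0.02, SE 1.73, adjusted p = 1.00). The overlap rests on RMA early 2, and no fit with 1 library left out called it. Its log2 fold change was 9.38 without RMA early 2, -0.57 without RMA early 3 and -1.08 without RMA intermediate 2. Pdcd1 had 6 counts in RMA early 2 and 0 in the other 5 libraries and was not tested. The list's median was 0.04, -0.06 with DESeq2 size factors, and -0.10 without RMA intermediate 2 and 0.41 without RMA intermediate 3.

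Some Ly49 and other Klr receptor genes fell, among them a pseudogene, while none of the 16 NK cell markers given above did (edgeR). The counts of the Ly49 and Klr list were as follows. Of 21 tested, 3 fell and none rose, 16 were below 0, and the median was -0.36 (-0.56 without RMA intermediate 1). Over all genes tested 0.626% fell, 9228 of 17097 were below 0 and the median was -0.11. The Ly49 and Klr list summed to 11522, 10849.9 and 10221 CPM at day 2 and 9085, 7020.5 and 7847 CPM at day 4 (controls 8621 to 12686 CPM), so RMA intermediate 1 lay within the control range and the other 2 below it, and at day 9 to 12033, 11992 and 10809 CPM. Klra13-ps, a pseudogene of the Ly49 cluster (ENSMUSG00000030178, chr6:130290878-130306428), measured 1619.7, 1190.2 and 1029 CPM at day 2 and 200.3, 400.5 and 141 CPM at day 4. Every day 4 library lay below every day 2 library, and below the controls too (579.7 to 1439.9 CPM). It fell (log2 fold change -2.37, SE 0.40, adjusted p = 0.00371) without each of the 6 libraries too. Klrc2, an activating receptor gene, measured 848, 668 and 613 CPM at day 2 and 329, 282 and 266 CPM at day 4 and fell (log2 fold change -1.28, SE 0.25, adjusted p = 0.00897). Klrc2 did not pass without RMA early 1 (adjusted p = 0.0658) or RMA intermediate 3 (adjusted p = 0.0620). Klra10 measured 45.9, 21.0 and 18.2 CPM at day 2 and 5.03, 6.47 and 2.75 CPM at day 4 and fell (log2 fold change -2.57, SE 0.56, adjusted p = 0.0174). Klra10 did not pass without RMA early 1 (adjusted p = 0.108), RMA intermediate 1 (adjusted p = 0.0630) or RMA intermediate 3 (adjusted p = 0.113). The Klra genes are near-copies of one another and Klrc2 of its neighbors, so reads could be split among them and these values are uncertain. Klrd1 (1253, 1241 and 1203 CPM at day 2 and 1089, 724 and 902 CPM at day 4; log2 fold change -0.45, SE 0.19, adjusted p = 0.205), which pairs with Klrc2 on the cell surface, did not pass.

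The lists of activating receptors, maturation and transcription factors held no calls (edgeR). In each of the first 2, 1 gene passed the adjusted p alone. In the activating receptor and adaptor list 0 of 30 passed (median -0.05, -0.13 without RMA early 3 and 0.07 without RMA intermediate 2). Klrk1, NKG2D, measured 2890.3, 2254 and 2240.1 CPM at day 2 and 1972, 1630.0 and 1650.3 CPM at day 4 (log2 fold change -0.49, SE 0.19, adjusted p = 0.178). The maturation and trafficking list held 0 of 30 (median 0.05, -0.04 with DESeq2 size factors, and -0.01 without RMA early 2 and 0.07 without RMA intermediate 1), and the transcription factor list 0 of 33 (median -0.03, -0.24 without RMA intermediate 2 and 0.01 without RMA early 3). Over all genes 3351 had an unadjusted p under 0.05, and limma voom and DESeq2 made 462 and 911 calls in the whole table.

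Immediate early genes lay lower as a group, with 19 of 26 below 0 (9228 of 17097 over all genes) and a median of -0.52, but 1 rose and none fell in edgeR. Their sum was 13605, 15269.9 and 13714 CPM at day 2 and 9205, 8606 and 9287 CPM at day 4 (controls 3675 to 16160.1 CPM), all 3 day 4 libraries below all 3 day 2 libraries, and all 6 within the control range. Egr2, the gene that rose, measured 0.400, 5.05 and 3.97 CPM at day 2 and 17.6, 34.8 and 32.7 CPM at day 4 (log2 fold change 3.16, SE 0.78, adjusted p = 0.0326). Its day 2 values lay under the controls (13.4 to 22.1 CPM) and its day 4 values within or above them. Egr2 did not pass without RMA early 1 (adjusted p = 0.130), RMA intermediate 2 (adjusted p = 0.0913) or RMA intermediate 3 (adjusted p = 0.111). Btg2, an antiproliferative gene, had 2078, 1995 and 1580.1 CPM at day 2 and 922, 762 and 667 CPM at day 4 and did not pass (log2 fold change -1.27, SE 0.47, adjusted p = 0.163). Tnfaip3, which restrains NF-kB, had 2160.0, 3897 and 2831 CPM at day 2 and 1149.7, 1191 and 1084 CPM at day 4 and did not pass (log2 fold change -1.38, SE 0.77, adjusted p = 0.317). Btg2 stayed uncalled under 13 of 17 alternatives and passed as lower under the rest, which include DESeq2 and the test without a filter (lowest adjusted p = 1.5e-09). Tnfaip3 stayed uncalled under 15 of 17 and passed as lower without a filter and in the 6 libraries alone (lowest adjusted p = 2.5e-13). In the heat shock and chaperone list 0 of 16 passed (edgeR; median 0.13, 0.01 without RMA early 3 and 0.32 without RMA early 2).

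**Figure D3:**
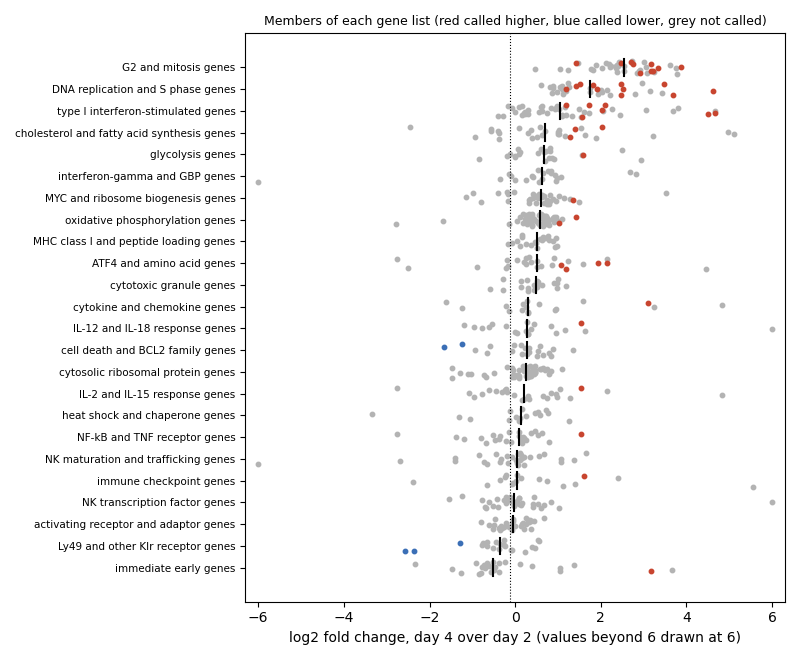
Log2 fold change of each tested member of the 24 gene lists, sorted by the list median (black bar), red for risen and blue for fallen members, with the dotted line at the all-gene median of -0.11. The mitosis list (2.53) and the S phase list (1.74) lie highest and the immediate early genes (-0.52) lowest.

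Cdkn1b, the inhibitor p27 of the cell cycle, measured 80.1, 52.5 and 55.7 CPM at day 2 and 28.6, 18.4 and 12.8 CPM at day 4. All 3 day 4 values lay below all 3 day 2 values and below the lowest control (32.9 CPM), and it fell (log2 fold change -1.65, SE 0.44, adjusted p = 0.0463). Trp53inp1, a p53 target, measured 378, 170.2 and 272 CPM at day 2 and 121, 109.9 and 117 CPM at day 4 and fell (log2 fold change -1.24, SE 0.33, adjusted p = 0.0466). Cdkn1b did not pass without RMA early 1 (adjusted p = 0.174), RMA early 2 (adjusted p = 0.0580), RMA intermediate 1 (adjusted p = 0.0552), RMA intermediate 2 (adjusted p = 0.144) or RMA intermediate 3 (adjusted p = 0.220). Trp53inp1 did not pass without RMA early 1 (adjusted p = 0.224), RMA early 3 (adjusted p = 0.0548), RMA intermediate 1 (adjusted p = 0.124), RMA intermediate 2 (adjusted p = 0.144) or RMA intermediate 3 (adjusted p = 0.155). These were the 2 of 21 genes in the cell death list that fell, and none rose (median 0.28, 0.13 without RMA early 2 and 0.36 without RMA early 3). The share that fell over all genes tested was 0.626%.

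A few long noncoding RNA genes fell, 4 of 669 lincRNA genes (0.598%) and 2 of 617 antisense genes (0.324%), beside 0.626% of all genes. Neat1, the scaffold of nuclear paraspeckles (ENSMUSG00000092274, chr19:5824708-5845478), measured 658, 362 and 342 CPM at day 2 and 50.3, 59.4 and 45.3 CPM at day 4. The day 2 values lay within or above the controls (157 to 399 CPM) and the day 4 values lay below all of them, and it fell (log2 fold change -3.14, SE 0.50, adjusted p = 0.00268) without each of the 6 libraries too. Malat1, another abundant nuclear RNA, measured 1811, 1392 and 1231 CPM at day 2 and 189, 308 and 123 CPM at day 4 and fell (log2 fold change -2.84, SE 0.50, adjusted p = 0.00476), also without each of the 6 libraries. Among protein-coding genes, Ints6l, a relative of a subunit of the Integrator complex, measured 99.4, 104 and 53.7 CPM at day 2 and 12.5, 18.5 and 11.3 CPM at day 4 and fell (log2 fold change -2.60, SE 0.48, adjusted p = 0.00654), without each of the 6 libraries too. Its day 2 values lay above the controls (30.3 to 42.4 CPM). Ftx, a long RNA gene of the X inactivation center, measured 10.4, 49.8 and 16.1 CPM at day 2 and 1.68, 6.18 and 4.24 CPM at day 4 and fell (log2 fold change -2.66, SE 0.71, adjusted p = 0.0488). Ftx did not pass without RMA early 1 (adjusted p = 0.0674), RMA early 2 (adjusted p = 0.200), RMA intermediate 1 (adjusted p = 0.193), RMA intermediate 2 (adjusted p = 0.0865) or RMA intermediate 3 (adjusted p = 0.170). Ftx had a log2 fold change of -1.72 without RMA early 2. The files do not state whether reads were counted by strand, so a long RNA and an overlapping gene cannot be told apart. Dtna had 29.0, 6.19 and 4.89 CPM at day 2 and 0, 0 and 0 CPM at day 4, at least 44.3-fold lower. This bound rests largely on RMA early 1, and without that library it is much lower. Dtna did not pass without RMA early 1 (adjusted p = 0.127), RMA intermediate 1 (adjusted p = 0.126), RMA intermediate 2 (adjusted p = 0.123) or RMA intermediate 3 (adjusted p = 0.144).

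Spo11, a gene of meiosis, measured 63.8, 24 and 36.0 CPM at day 2 and 5.56, 5.30 and 3.21 CPM at day 4 and fell (log2 fold change -3.13, SE 0.73, adjusted p = 0.0251). Heatr9 measured 30.2, 45.6 and 34.4 CPM at day 2 and 6.26, 5.49 and 6.99 CPM at day 4 and fell (log2 fold change -2.55, SE 0.64, adjusted p = 0.0353). The groups did not overlap for either. Lrba, which keeps CTLA-4 from breakdown, measured 36.7, 53.2 and 34.5 CPM at day 2 and 9.97, 9.61 and 2.29 CPM at day 4 and fell (log2 fold change -2.50, SE 0.65, adjusted p = 0.0426). Pex11g, of peroxisomes, measured 26.6, 26.3 and 15.2 CPM at day 2 and 3.18, 5.00 and 4.01 CPM at day 4 and fell (log2 fold change -2.48, SE 0.57, adjusted p = 0.0235). Spo11 did not pass without RMA early 1 (adjusted p = 0.112), RMA intermediate 1 (adjusted p = 0.0844), RMA intermediate 2 (adjusted p = 0.0864) or RMA intermediate 3 (adjusted p = 0.133). Heatr9 did not pass without RMA early 1 (adjusted p = 0.0787), RMA early 2 (adjusted p = 0.0800), RMA intermediate 1 (adjusted p = 0.120), RMA intermediate 2 (adjusted p = 0.128) or RMA intermediate 3 (adjusted p = 0.129). Lrba did not pass without RMA early 1 (adjusted p = 0.0957), RMA early 2 (adjusted p = 0.0939), RMA intermediate 1 (adjusted p = 0.0933), RMA intermediate 2 (adjusted p = 0.0950) or RMA intermediate 3 (adjusted p = 0.194). Pex11g did not pass without RMA early 1 (adjusted p = 0.0797), RMA intermediate 1 (adjusted p = 0.102), RMA intermediate 2 (adjusted p = 0.0674) or RMA intermediate 3 (adjusted p = 0.111).

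The median log2 fold change was -1.35 over 669 lincRNA genes, -1.04 over 617 antisense genes and -0.03 over 13405 protein-coding genes. By the length the files give, protein-coding genes had medians of 0.14 under 1 kb, -0.17 at 2 to 3 kb and -0.47 over 3 kb. The share that fell was 0.694% of protein-coding genes, 0.707% under 1 kb and 0.722% over 3 kb, and the share that rose was 2.08% under 1 kb and 0.601% over 3 kb. Risen protein-coding genes had a median length of 986 bases, fallen ones of 1524 and all tested of 1539.5. The shares of long and noncoding RNA given above for each library move in the same direction, and their part in these medians was not tested.

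**Figure D4:**
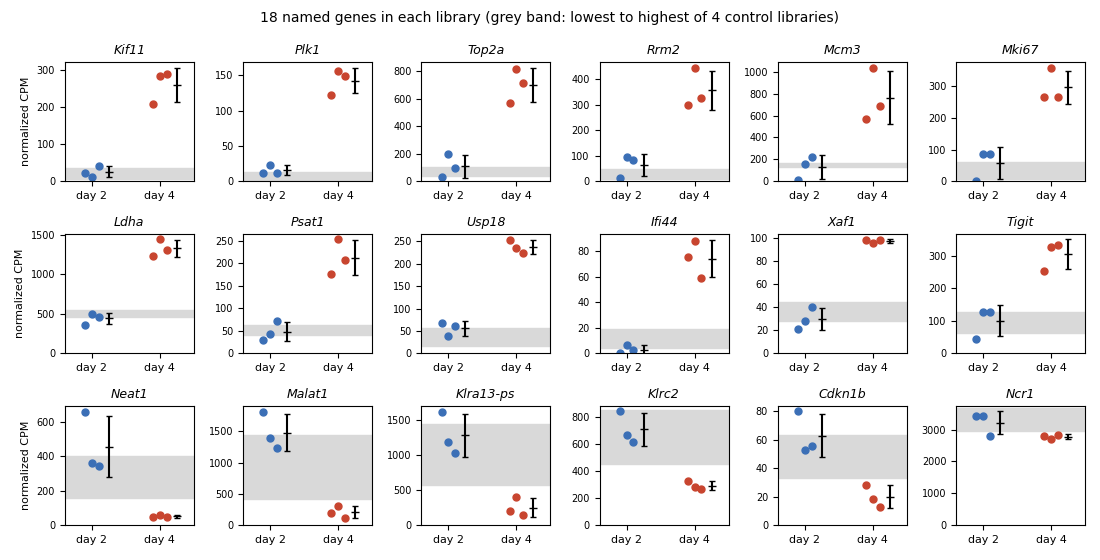
Normalized CPM of 18 named genes in each day 2 (blue) and day 4 (red) library, with mean and SD beside the points and the range of 4 controls in grey. The 16 called genes among them do not overlap between the days, nor does Mki67 (log2 fold change 2.35), while Ncr1 does.

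The step from day 2 to day 4 was then set against the step from day 2 to day 7 in RMA-KR, which shares no library with it. The intermediate day differs between the tumors, so tumor and day cannot be told apart. In an interaction test 22 genes (0.129%) differed, 18 with the higher step in RMA and 4 with the lower. Kif11 measured 46.4 CPM at RMA-KR day 2 and 19.8 CPM at day 7 (means of 3 and 5 libraries), a log2 step of -1.22 against 3.33 in RMA, and the difference was 4.55 (SE 0.71, adjusted p = 0.0116). Plk1 stepped by -0.85 in RMA-KR against 3.17 in RMA (difference 4.01, adjusted p = 0.0439), and its RMA step did not pass without RMA early 1 (adjusted p = 0.0747). Xaf1 stepped by -0.24 against 1.72 (difference 1.96, adjusted p = 0.0409). The median step of the mitosis list was -0.33 in RMA-KR and 2.53 in RMA. For the S phase list it was 1.01 and 1.74, and for the type I interferon list 0.45 and 1.05. The differences of these medians were not tested. The RMA-KR day 7 libraries were not alike: in replicates 1 to 5 the S phase list summed to 2322, 2601, 5891, 3254 and 4786 CPM, and 16651, 15922, 24676, 26285 and 24621 genes had a count. Replicates 1 and 2 lay below the other 3 in both, and the part of this in the RMA-KR steps was not tested.

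Mef2c, a transcription factor gene, measured 85.9, 88.5 and 96.4 CPM at day 2 and 39.4, 48.6 and 36.8 CPM at day 4 and fell in RMA (log2 fold change -1.12, SE 0.26, adjusted p = 0.0235), while its RMA-KR step was 0.65 (difference -1.76, adjusted p = 0.0409). Mef2c did not pass without RMA early 1 (adjusted p = 0.0733), RMA intermediate 1 (adjusted p = 0.0928) or RMA intermediate 3 (adjusted p = 0.125). Single libraries decide this count too: it was 1 without RMA early 1, 2 without RMA early 2, 180 without RMA early 3, and 4, 2 and 2 without RMA intermediate 1, 2 and 3. With limma voom 0 genes passed (2326 at an unadjusted p under 0.05), and DESeq2 gave 291. Library totals gave 8.

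**Figure D5:**
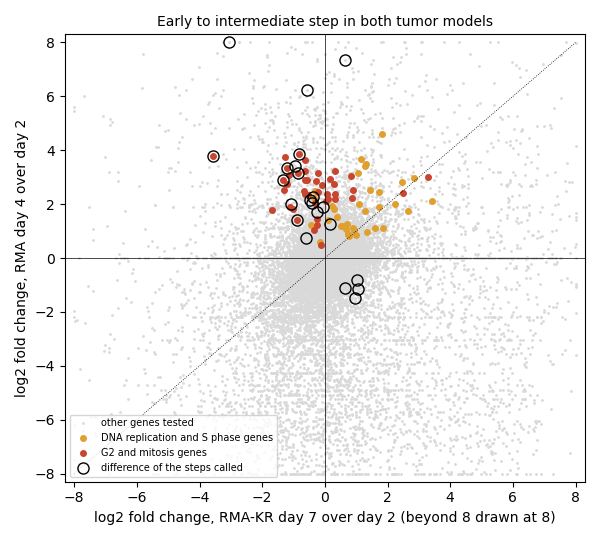
Each point is a gene, with its log2 step in RMA-KR (day 7 over day 2) on the horizontal axis and in RMA (day 4 over day 2) on the vertical axis, and circles mark the 22 genes whose steps differed in the interaction test. All 42 mitosis genes (red) lie above 0 on the vertical axis and most lie around 0 on the horizontal axis, with medians of 2.53 and -0.33.

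Nt5e, the ectoenzyme CD73, measured 16.4, 15.7 and 21.8 CPM at day 2 and 25, 14.3 and 6.07 CPM at day 4 (log2 fold change -0.25, SE 0.83, adjusted p = 0.917). Tox, a transcription factor of exhausted lymphocytes, measured 80.2, 78.4 and 60.3 CPM at day 2 and 51.2, 84.4 and 52.4 CPM at day 4 (log2 fold change -0.22, SE 0.23, adjusted p = 0.623). Neither passed. Itgam, which codes for CD11b, measured 358, 287 and 297 CPM at day 2 and 321, 265 and 312 CPM at day 4 (log2 fold change -0.07, SE 0.37, adjusted p = 0.966). Cd27 measured 114, 236 and 148 CPM at day 2 and 153, 144 and 146 CPM at day 4 (log2 fold change -0.16, SE 0.30, adjusted p = 0.804). These surface markers of NK cell maturity did not pass either. Itga1, CD49a, measured 10, 0.103 and 8.72 CPM at day 2 and 7.06, 2.55 and 9.40 CPM at day 4 (log2 fold change 0.02, SE 1.20, adjusted p = 1.00). Il2rb, a chain of the IL-15 receptor, measured 1767, 2141 and 2252 CPM at day 2 and 2033, 2807 and 2780.2 CPM at day 4 (log2 fold change 0.31, SE 0.18, adjusted p = 0.339). Neither passed.

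Some of the genes followed at the protein level in NK cells gave no call. Cd69, an early activation marker, measured 274, 388 and 446 CPM at day 2 and 411, 345 and 382 CPM at day 4 (log2 fold change 0.04, SE 0.54, adjusted p = 1.00). The groups overlapped. Lamp1, the gene of the degranulation marker CD107a, measured 227, 138 and 218 CPM at day 2 and 295, 301 and 305 CPM at day 4 (log2 fold change 0.63, SE 0.25, adjusted p = 0.187). Eomes, a master transcription factor of NK cells, measured 249, 368 and 326 CPM at day 2 and 223, 192 and 161 CPM at day 4, lower in all 3 day 4 libraries, and did not pass (log2 fold change -0.71, SE 0.20, adjusted p = 0.0655).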

How the data were processed

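RNA was measured in NK cells sorted from spleens, in 24 libraries of 7 groups, from poly(A) RNA with a Lexogen mRNA kit and single reads of 50 nt. Raw counts per gene were used as the authors deposited them. The authors trimmed reads with cutadapt 1.10, removed ribosomal RNA with Bowtie2 2.2.8, aligned to mm10 with STAR 2.5.3a and counted genes with HTSeq 0.6.1p1. They also ran DESeq2 1.16.1. Gene names, classes, positions and transcript lengths in bases are those the authors deposited with the counts. The strand setting of the counting is not stated. The table's 48 other per-library columns and the authors' own comparison columns were not used.

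From the counts, edgeR 4.0.16 (R 4.3.3) computed TMM scaling, CPM and quasi-likelihood F tests (robust) in a model of the 7 groups, on the 17097 of 45237 genes (37.8%) that filterByExpr kept. Each adjusted p in the text comes from these tests and was adjusted by the Benjamini-Hochberg method over the 17097 genes, unless a sentence names another tool or setting. A lowest adjusted p over alternatives comes from whichever alternative gave it, which may be another tool or another set of genes. Called genes changed more than 2-fold at an adjusted p below 0.05. The step difference between the tumors is an interaction term of the same model. Fold bounds use a floor of 3 counts per library. The 6 libraries compared held 7203171 to 11817151 counts, with a median of 9382154, and the 24 libraries 5138651 to 14863500.

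Genes were named by a rule: the 10 largest rises and 10 largest falls among called genes without overlap and with a mean of at least 5 CPM in the higher group (predicted genes and pseudogenes left out), the 6 called members with the smallest p of each of 24 gene lists, each list's member with the smallest p and its 2 most abundant members, the 5 highest and 5 lowest called step differences between the tumors, genes followed in NK cells by the study, and the most abundant and any called gene of each marker list. The text does not print each list member. Members and lists were chosen with earlier results of these data known. Lists are described by counts and medians beside those of all genes tested. Promoter letters were read in the 250 bases before RefSeq gene starts of the matching build, GRCm38.p6.

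Alternatives were 3 other scalings, DESeq2 1.42.0 with default settings and with a prior on fold changes, limma 3.58.1 (voom with sample weights), 2 other filters, the 6 libraries alone, a block on the replicate number, no fold minimum, and leaving out each of the 6 libraries. The model was fitted to the same genes when libraries were left out, a choice made after counts from refiltered genes had been seen. Leaving out RMA early 1 and 2 together was chosen after seeing the data. The steps were also run on simulated counts that varied less between libraries than these do. That run checks the code and does not show how the test behaves on data with this spread.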

Additional observations from a re-analysis of the deposited data

Results flagged for a closer look

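The step from early to intermediate differed between the tumors in an interaction test (edgeR) for 14 genes followed by name. The intermediate day is 4 for RMA and 7 for RMA-KR, so tumor and day cannot be told apart. The log2 differences, RMA step minus RMA-KR step, were Kif11 4.55 (RMA 3.33, RMA-KR -1.22, adjusted p = 0.0116), Zwilch 6.71 (RMA 7.36, RMA-KR 0.65, adjusted p = 0.0308), Stard4 3.11 (RMA 2.02, RMA-KR -1.09, adjusted p = 0.0308) and Xaf1 1.96 (RMA 1.72, RMA-KR -0.24, adjusted p = 0.0409). For other genes with the higher step in RMA they were Racgap1 2.29 (RMA 1.42, RMA-KR -0.87, adjusted p = 0.0409), Kif20a 4.69 (RMA 3.88, RMA-KR -0.81, adjusted p = 0.0409), Cdkn3 6.80 (RMA 6.22, RMA-KR -0.58, adjusted p = 0.0409), Anln 7.37 (RMA 3.78, RMA-KR -3.59, adjusted p = 0.0409) and Plk1 4.01 (RMA 3.17, RMA-KR -0.85, adjusted p = 0.0439). The RMA step of Anln itself did not pass, and its log2 fold change ran from 1.86 to 6.20 over the alternatives. Sapcd2, at 0 in all 3 RMA day 2 libraries, had a fitted difference of 14.58 (adjusted p = 0.0409), which depends on the prior count and is no bound. Genes with the lower step in RMA were Rgs3 -1.86 (RMA -0.83, RMA-KR 1.03, adjusted p = 0.0409), Mut -2.43 (RMA -1.46, RMA-KR 0.97, adjusted p = 0.0409), Mef2c -1.76 (RMA -1.12, RMA-KR 0.65, adjusted p = 0.0409) and Pitpnm1 -2.19 (RMA -1.14, RMA-KR 1.04, adjusted p = 0.0409). The RMA steps of Rgs3 and Pitpnm1 themselves did not pass. That of Mut did not pass in edgeR without RMA early 1, RMA early 2 or any RMA intermediate library (adjusted p = 0.0536 to 0.125). Its log2 fold change ran from -1.81 to -0.38 over the alternatives.

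Without RMA early 1 the number of genes that differed was 1, without RMA early 2 it was 2, and without RMA early 3 it was 180. It was 4, 2 and 2 without RMA intermediate 1, 2 and 3, against 22 with all libraries. Library totals gave 8, limma voom 0 (2326 genes at an unadjusted p under 0.05) and DESeq2 291. A block on the replicate numbers, which do not pair the libraries, gave 1.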

How the results depend on the processing

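Of the 62 called genes followed by name, 53 passed under all 3 other scalings, 11 passed without each of the 6 libraries, 44 did not pass in the 6 libraries alone, 10 with limma voom and 12 with the replicate block, none passed under every alternative, and none turned direction with a call. Against 295 called (188 higher, 107 lower), library totals gave 113 higher and 177 lower, DESeq2 911 (373 higher, 538 lower), DESeq2 with a prior 643 (367 lower), limma voom 462 (273 lower), no filter 617 (392 higher, 225 lower), a minimum of 10 counts in each library 229 lower, and the 6 libraries alone 90 (48 higher, 42 lower). DESeq2 size factors gave 283, upper quartile scaling 285 and no fold minimum 399. Leave-one-out fits ranged from 48 to 610 called, 35 to 433 higher and 13 to 177 lower. RMA early 1 gave the lowest counts and RMA early 3 the highest. Leaving out both RMA early 1 and 2, chosen after seeing the data, gave 0 called, 0 higher and 0 lower in edgeR (1729 genes at an unadjusted p under 0.05; no other tool was run). For the step difference between the tumors (22), library totals gave 8, DESeq2 291, DESeq2 with a prior 161, limma voom 0 (2326 genes at an unadjusted p under 0.05), no filter 301, and leave-one-out fits 1 to 180. Fits with a library left out hold fewer samples. Beyond this the cause was not tested.

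The replicate numbers do not pair the libraries: residuals of libraries with the same number correlated at -0.00795, -0.0376 and -0.0293. A block on these numbers gave 235 called, 155 higher and 80 lower, and 1 for the step difference.

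List medians: of 24 lists, 5 with medians near 0 changed sign under an alternative. With library totals the median was -0.48 for Ly49 and Klr receptors, 0.39 for MHC class I (0.36 without RMA early 1), -0.17 for activating receptors (-0.16 with upper quartile scaling), 0.58 for cholesterol genes and 0.35 for granule genes. With at least 10 counts per library cholesterol genes gave 0.55. With both RMA early 1 and 2 left out the medians were 0.11 for activating receptors, 0.91 for cholesterol genes and 0.32 for heat shock genes, which were higher, and 0.07 for cell death, 0.12 for cytokine, 0.15 for IL-12 and IL-18, 0.36 for interferon-gamma, -0.05 for NF-kB and -0.18 for transcription factor genes, which were lower. The cause was not tested. With 7203171 counts in the smallest of the 6 libraries, a floor of 3 counts limits the folds that can be given for genes at 0.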
